A study of Sus scrofa with 8 samples.

Results

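Forkhead transcription factors share the winged-helix forkhead domain, and their genes carry FOX symbols with a letter for the subclass. The genes described here were all protein-coding genes on pig chromosomes 1 to 18 whose RefSeq symbol (Sscrofa11.1) is FOX, a letter from A to S and a digit, apart from a symbol that the rule sets aside and read-through names. The rule found 39 genes on 15 chromosomes, of 16298 protein-coding genes analysed. They were compared between pgEpiSC, pig pre-gastrulation epiblast stem cells from the embryonic epiblast at embryonic day 10, and pEF, porcine embryonic fibroblasts from fetuses at embryonic day 30. Acetylation of histone H3 at lysine 27 (H3K27ac), a mark of active promoters and enhancers, was mapped by chromatin immunoprecipitation and sequencing (ChIP-seq) in 2 libraries per cell type, numbered 1 and 4 for pgEpiSC and 1 and 2 for pEF, each with an input library. Genotype, breed and sex were not given in the labels used here, and no treatment was named. Separate lines, animals or cultures are not named for the libraries, so the p-values measure only the spread between these libraries, which may be technical. Cell number and signal per cell cannot be told apart in such bulk libraries. The cell types also differ in age and tissue of origin, and these cannot be told apart from cell identity.

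Most forkhead proteins bind DNA as monomers through the winged helix, and several can open closed chromatin for other factors. FOXH1 carries NODAL signals to the genome as a partner of the SMAD proteins, the FOXO proteins are held out of the nucleus when insulin and AKT signalling is active, and FOXM1 drives genes of mitosis. FOXC, FOXD, FOXF and FOXL genes are known for patterning mesenchyme. FOXB, FOXE and FOXI genes, FOXJ1, FOXN1 and FOXN4 act mostly in ectoderm, nervous tissue, placodes and ciliated cells, while other FOXJ and FOXN genes are broadly expressed.

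The measure for a gene was its acetylated length, the number of kb covered by deposited H3K27ac islands (stretches called enriched over input) in the gene body with 10 kb on either side. The 4 libraries held between 57790 and 74208 islands with 29679982 to 46383051 ChIP reads in them. Islands covered 408 and 414 Mb in the pgEpiSC libraries and 273 and 275 Mb in the pEF libraries, whereas the share of islands with at least 2-fold enrichment over input was 37.1% and 27.8% in pgEpiSC and 84.7% and 85.6% in pEF. Of 7 pgEpiSC markers fixed as a list, 6 were higher in pgEpiSC by limma (NANOG was not past the threshold), and OTX2 and SALL4 had no island in pEF. Of 7 fibroblast markers, 5 were higher in pEF (PRRX1 and THY1 were not past it), and COL1A2, COL3A1 and TWIST1 had no island in pgEpiSC.

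Acetylated length was higher in pgEpiSC at 16 of the 39 genes (41.0%) and higher in pEF at 6 (15.4%), while 17 were not past the threshold (limma on log2(kb + 1), two-sided, adjusted p under 0.05). The background over all genes tested was 31.9% for pgEpiSC, 10.9% for pEF and 42.8% for either, so these counts alone set the family little apart from other genes. The median log2 fold change of pgEpiSC over pEF was 0.51 for the forkhead genes and 0.46 for all genes. The members higher in pgEpiSC included the epiblast genes FOXD3 and FOXH1 and 7 of 12 genes listed for ectoderm, placode, neural and ciliated tissue. Of the 6 higher in pEF, 4 were listed for mesenchyme, mesoderm and vessel. At some members, such as FOXJ1 and FOXR1, the length in pgEpiSC lay mostly or wholly outside the gene, as given below.

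**Figure D1:**
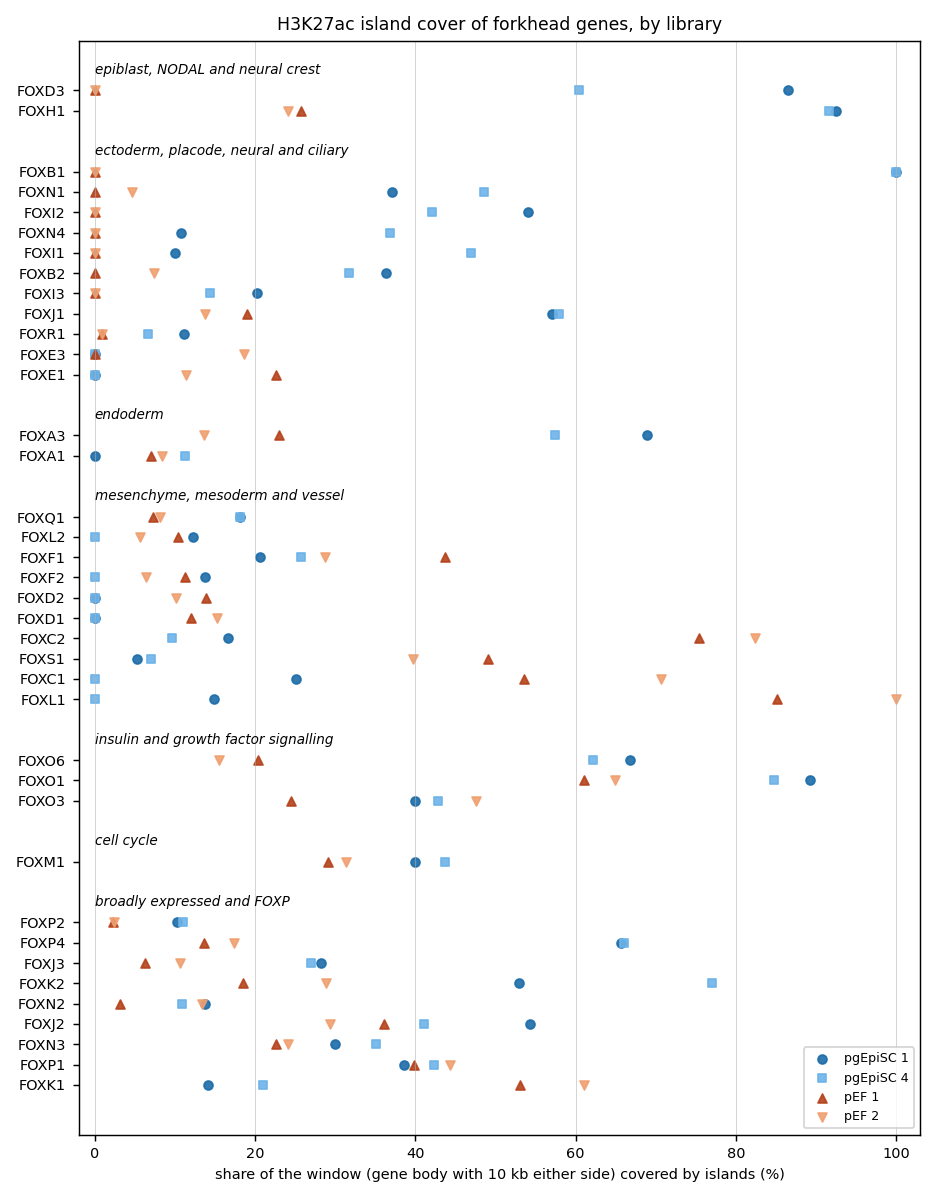
Share of the gene window covered by H3K27ac islands (x axis, percent) for the forkhead genes named in the text (y axis) in the 4 libraries, grouped by role. The pgEpiSC points lie at 100% for FOXB1 and above 60% for FOXD3, where both pEF points lie at 0, and the order is turned round for FOXL1, FOXC2 and FOXS1.

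The number of calls rested on weakly enriched islands and on every library. With islands of at least 2-fold over input alone, 3 members were called for pgEpiSC (FOXB1, FOXD3 and FOXH1) and 11 for pEF, and over all genes the calls turned from 5196 against 1773 to 1150 against 2692. Centring each library on its median gene shifted all log2 fold changes down by 0.63, after which 13 members were called for pgEpiSC and 9 for pEF, with 3583 against 3853 over all genes. Leaving out any library lowered the calls in both directions, for the forkhead genes and over all genes alike. FOXB1 was the only member called in the same direction under all 9 other settings and all 4 left-out libraries. An exact permutation test of 2 against 2 libraries cannot go below p = 0.333, so single genes were tested only within the fit across all genes.

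**Figure D2:**
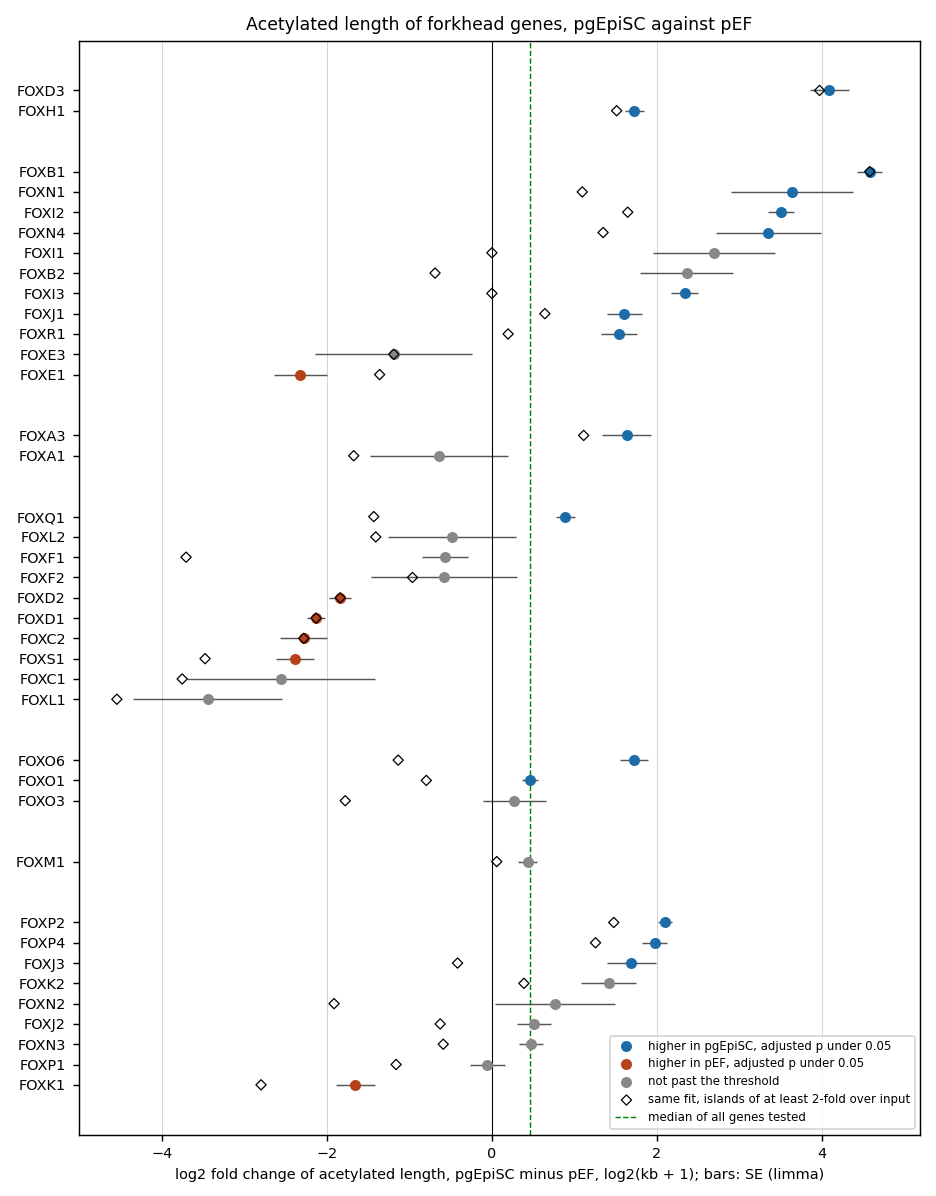
Log2 fold change of acetylated length, pgEpiSC minus pEF, on the log2(kb + 1) scale (x axis; points, bars are the SE from limma) for the forkhead genes named in the text (y axis), with open diamonds for the same fit on islands of at least 2-fold over input. The dashed line marks the median of all genes, 0.46; the diamonds of FOXB1, FOXD3, FOXC2, FOXD1 and FOXD2 lie close to their points, while those of FOXO6, FOXJ3 and FOXQ1 cross 0.

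FOXD3 and FOXH1, the members tied to the epiblast, were both higher in pgEpiSC. FOXD3, a repressor needed in the epiblast and later in neural crest, had 19.2 kb in pgEpiSC 1, 13.4 kb in pgEpiSC 4 against 0 kb in both pEF libraries. Both pgEpiSC libraries were high, and the nearest pEF island lay 28.2 kb from the gene. The log2 fold change was 4.09 (SE 0.23, limma adjusted p = 0.00488), but the call was lost when either pEF library was left out. In pgEpiSC 1 a 35.0 kb island ran over the gene, and in pgEpiSC 4 the window held 3 islands, the longest of 9.8 kb.

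FOXH1 had 22.2 kb in pgEpiSC 1, 22.0 kb in pgEpiSC 4, 6.17 kb in pEF 1 and 5.77 kb in pEF 2. The pgEpiSC libraries covered nearly the whole window and did not overlap with pEF (log2 fold change 1.73, SE 0.11, limma adjusted p = 0.00582), and this call was lost without pgEpiSC 4. The gene itself with 2 kb either side was filled in pgEpiSC, at 7.96 kb in both libraries, and held 1.99 and 2.39 kb in pEF. KIFC2 and PPP1R16A lie in the same window and held a further 13.9 and 13.7 kb in pgEpiSC, so part of the FOXH1 length lay at its neighbours. Here and below, length over a neighbour counts its body with 2 kb either side. ChIP reads in the region that spans FOXH1 were 101 and 109 CPM (ChIP reads scaled to library size with TMM factors) in pgEpiSC against 17.6 and 15.5 in pEF (log2 fold change 2.67, edgeR adjusted p = 0.00154). Here and below, a library's reads in a region are those inside its own islands, so they are not independent of length. The islands of this region covered 14.8 and 14.2 kb in pgEpiSC and 2.8 kb in each pEF library.

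The NODAL axis around FOXH1 had 7 of 14 measured genes called for pgEpiSC (31.9% of all genes) and 1 for pEF (10.9%). GDF3, a NODAL-related ligand, had 25.5 and 25.1 kb in pgEpiSC against 0 kb in both pEF libraries (log2 fold change 4.72, limma adjusted p = 0.0029). TDGF1, the NODAL co-receptor, differed by 2.60 on the log2 scale (limma adjusted p = 0.00976), and LEFTY2, the secreted inhibitor, by 2.58 (0.00420). SMAD3, a transducer of the pathway, was higher in pEF, with 76.8 and 82.6 kb in pgEpiSC and 126 and 136 kb in pEF (log2 fold change -0.71, limma adjusted p = 0.0242). The median log2 fold change of the 14 genes was 1.02, against 0.46 for all genes. With 2-fold islands the counts were 5 (7.06% of all genes) and 2 (16.5%) and the median was 0.28, against -0.28 for all genes.

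Among the 12 measured genes listed for ectoderm, placode, neural and ciliated tissue, 7 were higher in pgEpiSC, 1 was higher in pEF and 4 were not past the threshold. The shares over all genes were 31.9% for pgEpiSC and 10.9% for pEF. The median log2 fold change of the group was 2.35, against 0.46 for all genes. FOXB1, known from the developing hypothalamus and neural tube, had 22.9 kb in each pgEpiSC library and 0 kb in each pEF library. That is the whole window in both pgEpiSC libraries, so the measure could go no higher and the spread of 0 between them is set by the window. The islands over it were 36.6 and 28.2 kb long, with 4.04-fold and 4.39-fold enrichment over input in their reads, and the nearest pEF islands were 53.6 and 54.0 kb away. The log2 fold change was 4.58 (SE 0.15, limma adjusted p = 0.0029), the highest of the family. No other gene of the analysed set lies in the FOXB1 window. At FOXB1 in pEF, and at every member with 0 kb in both libraries of a type, the spread of 0 is set by the floor of the measure.

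FOXI2, of the subclass that includes ear and kidney regulators, had 11.7 and 9.12 kb in pgEpiSC and 0 kb in pEF. Both pgEpiSC libraries were well above both pEF libraries (log2 fold change 3.50, SE 0.16, limma adjusted p = 0.00363), and the call held with each library left out in turn. FOXI3, known for hair, tooth and ear placodes, had 4.8 and 3.4 kb in pgEpiSC against 0 kb in pEF (log2 fold change 2.34, limma adjusted p = 0.00651), but no island lay within 2 kb of its body. FOXI1, a regulator of acid-secreting cells of the ear and kidney, had 2.4 and 11.2 kb in pgEpiSC and 0 kb in pEF, a difference not past the threshold (log2 fold change 2.69, limma adjusted p = 0.069). The 3 FOXI genes thus had islands in both pgEpiSC libraries and in neither pEF library, and their enrichment over input was low, between 1.40-fold and 1.97-fold. Without islands under 2-fold, the log2 fold changes were 0 for FOXI1 and FOXI3 and 1.64 for FOXI2, none past the threshold.

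FOXN1, the thymus and hair factor mutated in nude mice, had 19.2 and 25.1 kb in pgEpiSC, 0 kb in pEF 1 and 2.4 kb in pEF 2 (log2 fold change 3.64, SE 0.74, limma adjusted p = 0.0385). FOXN4, a regulator of retinal and spinal interneurons, had 4.89 and 16.7 kb in pgEpiSC against 0 kb in pEF (log2 fold change 3.35, SE 0.64, limma adjusted p = 0.0343). For both genes the groups did not overlap, but the pgEpiSC libraries differed from each other, and 4.09 of the 4.89 kb at FOXN4 in pgEpiSC 1 lay over its neighbours ACACB and MYO1H. FOXJ1, the master gene of motile cilia, had 14.1 and 14.3 kb in pgEpiSC against 4.72 and 3.4 kb in pEF (log2 fold change 1.60, SE 0.21, limma adjusted p = 0.0175). Most of the FOXJ1 length in pgEpiSC lay outside the gene: in the body with 2 kb either side the libraries held 3.12 and 3.12 kb in pgEpiSC and 4.40 and 3.40 kb in pEF, and the fit on the gene body alone gave -0.23 (limma adjusted p = 0.64). FOXR1, a little studied member, had 3.48 and 2.08 kb in pgEpiSC against 0.276 kb in each pEF library (log2 fold change 1.54, limma adjusted p = 0.0198). All of this length lay over the neighbours UPK2 and CCDC84 with 2 kb either side, and the body of CCDC84 lies outside the window.

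FOXE1, the thyroid and palate factor, was the member of this group that was higher in pEF. It had 0 kb in both pgEpiSC libraries, 5.6 kb in pEF 1 and 2.8 kb in pEF 2 (log2 fold change -2.32, SE 0.32, limma adjusted p = 0.0187). The nearest pgEpiSC islands lay 45.4 and 45.8 kb from the gene. FOXB2 had 7.8 and 6.8 kb in pgEpiSC and 0 and 1.6 kb in pEF, with an adjusted p just above 0.05 (log2 fold change 2.36, limma adjusted p = 0.0526). FOXE3, the lens factor, had an island in pEF 2 alone, with 4.2 kb.

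The FOXB1 and FOXI2 calls held whichever library was left out. The calls of FOXI3, FOXN4 and FOXR1 were lost without pEF 1 or pEF 2, that of FOXE1 without pgEpiSC 1 or pgEpiSC 4, that of FOXN1 when any library except pEF 2 was left out, and that of FOXJ1 whichever was left out. With islands of at least 2-fold over input, FOXB1 was the only one of these 12 genes that was called (7.06% of all genes for pgEpiSC and 16.5% for pEF). The median log2 fold change of the group then fell from 2.35 to 0.10, while that of all genes turned from 0.46 to -0.28. With the gene body alone, FOXB1, FOXB2 and FOXI2 were called for pgEpiSC and FOXE1 for pEF. The group median was then 0.45, against 0.26 for all genes. Keratinocyte markers had a summed length of 49.0 and 59.2 kb in pgEpiSC and 2.8 and 8.8 kb in pEF. Over all genes the sums were also higher in pgEpiSC, at 326734 and 338911 kb against 219141 and 217483 kb in pEF. Of 4 keratinocyte markers measured, LAMB3 and DSG3 were called for pgEpiSC (31.9% of all genes), and KRT5 was at 0 in every library. With 2-fold islands 0 keratinocyte markers were called (7.06% of all genes for pgEpiSC). Neural markers summed to 32.5 and 37.0 kb in pgEpiSC and 50.1 and 39.9 kb in pEF. Of the 5, 1 was called, FABP7 higher in pEF (10.9% of all genes), and SOX1 was at 0 in every library. The part of other cell types in the forkhead values was not tested.

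**Figure D3:**
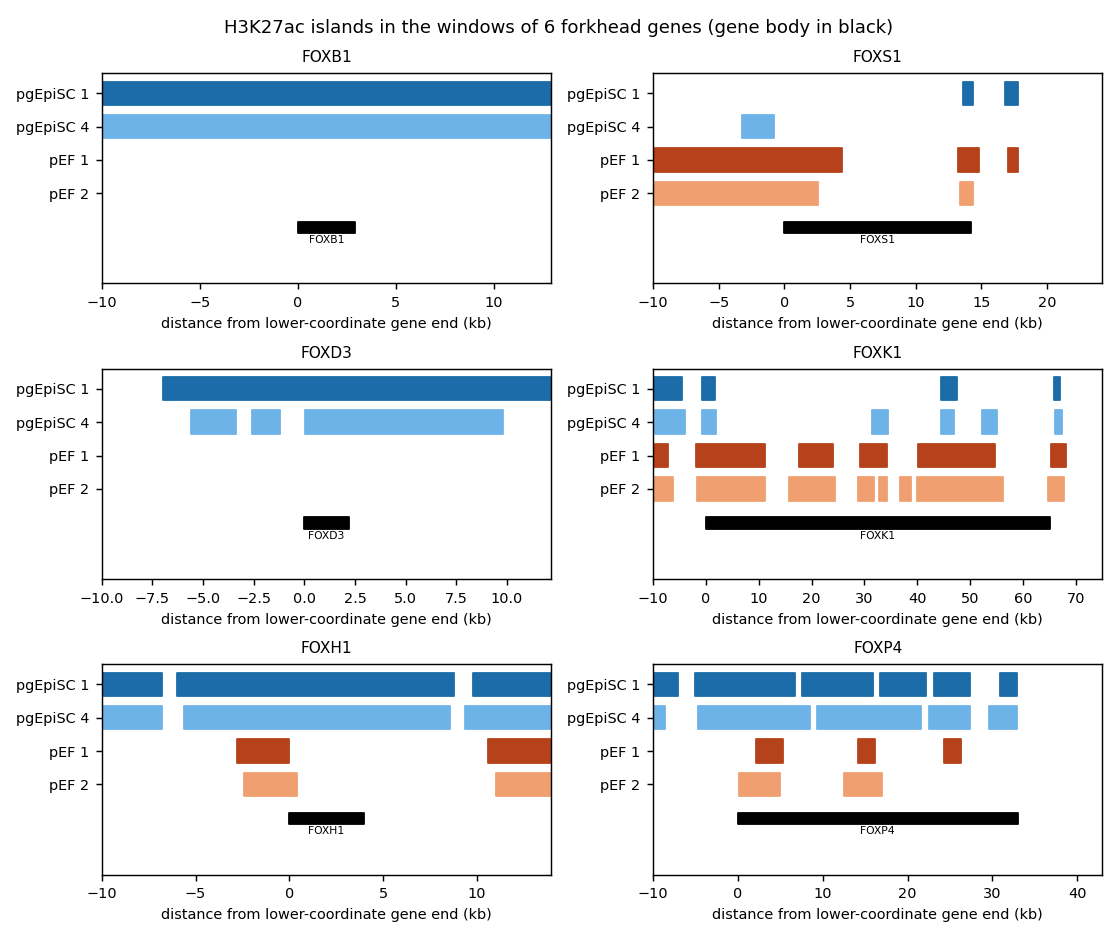
H3K27ac islands (bars, cut at the window edges) in each library along the windows of FOXB1, FOXD3, FOXH1, FOXS1, FOXK1 and FOXP4, by distance from the lower-coordinate gene end (x axis, kb), with the gene body in black. FOXB1 is covered from edge to edge in both pgEpiSC libraries and has no pEF island; at FOXS1 and FOXK1 the long islands are those of pEF.

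Of the endodermal genes, FOXA3, a regulator of liver and gut genes, was higher in pgEpiSC. It had 19.1 and 15.9 kb in pgEpiSC and 6.38 and 3.78 kb in pEF, with no overlap (log2 fold change 1.63, SE 0.30, limma adjusted p = 0.0315). The call was lost whichever of the 4 libraries was left out, and 8.67 and 6.67 kb of the pgEpiSC length lay over IRF2BP1 and SYMPK. FOXA1, a pioneer factor of endoderm, had 0 and 3.2 kb in pgEpiSC and 2.0 and 2.4 kb in pEF, which overlapped. Definitive endoderm markers summed to 52.5 and 42.7 kb in pgEpiSC and 18.2 and 23.2 kb in pEF. Of the 5, GATA4 and CXCR4 were called for pgEpiSC (31.9% of all genes), and SOX17 was at 0 in every library. With 2-fold islands 1 was called each way (7.06% of all genes for pgEpiSC and 16.5% for pEF).

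Of the 10 genes listed for mesenchyme, mesoderm and vessel, 4 were higher in pEF (FOXC2, FOXD1, FOXD2 and FOXS1), 1 was higher in pgEpiSC (FOXQ1) and 5 were not past the threshold. The shares over all genes were 10.9% for pEF and 31.9% for pgEpiSC. The median log2 fold change of the group was -1.99, against 0.46 for all genes. With islands of at least 2-fold over input the counts were 9 higher in pEF (16.5% of all genes) and 0 in pgEpiSC (7.06%), with FOXF2 as the gene not called. Endothelial markers moved the other way, with a summed length of 78.9 and 70.3 kb in pgEpiSC and 15.6 and 23.4 kb in pEF. Of these, 3 of 5 were called for pgEpiSC (31.9% of all genes), and KDR was at 0 in every library. With 2-fold islands 0 endothelial markers were called for pgEpiSC and 1 for pEF (CDH5). Their median log2 fold change turned from 1.45 to -1.53, while that of all genes turned from 0.46 to -0.28.

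FOXL1, FOXC2 and FOXF1 lie side by side on pig chromosome 6, and the interval from 10 kb before the first to 10 kb after the last held 15.4 and 12.2 kb of islands in pgEpiSC and 43.0 and 41.4 kb in pEF. FOXC2, needed for lymphatic and blood vessels and the skeleton, had 3.8 and 2.2 kb in pgEpiSC and 17.3 and 18.9 kb in pEF (log2 fold change -2.28, SE 0.28, limma adjusted p = 0.0156). Both pEF libraries were high, with 9.88-fold and 8.17-fold enrichment over input. The pgEpiSC islands in the window lay beside FOXC2 in MTHFSD, whose annotated span holds FOXC2 and reaches into FOXF1, and an island stood there in all 4 libraries. Within 2 kb of the FOXC2 body itself the cover was 0 kb in both pgEpiSC libraries and complete, at 6.90 kb, in both pEF libraries.

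FOXL1, a factor of the gut mesenchyme, had 3.6 and 0 kb in pgEpiSC and 20.6 and 24.2 kb in pEF. The groups lay far apart, but the pgEpiSC libraries differed and the difference was not past the threshold (log2 fold change -3.45, SE 0.90, limma adjusted p = 0.0625). Other settings put it past the threshold, among them 2-fold islands, the gene body alone, centring and leaving out pgEpiSC 1. FOXL1 and FOXC2 share islands, the only members that do: in pEF 2 an island of 27.4 kb ran over both, and in pEF 1 islands of 7.2 and 9.4 kb stood over them, so their values are not independent. FOXF1, a hedgehog-responsive gene of lung and gut mesenchyme, had 8 and 10 kb in pgEpiSC and 16.9 and 11.1 kb in pEF (log2 fold change -0.57, limma adjusted p = 0.199). The islands differed in place: in pgEpiSC an island stood over the lower-coordinate gene end, at 1.59-fold and 1.28-fold over input, and in pEF an island stood over the other end, at 8.39-fold and 5.65-fold. The other islands of the FOXF1 window lay away from these ends, at 1.21-fold in pgEpiSC 1 and between 1.36-fold and 2.78-fold in pEF.

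**Figure D4:**
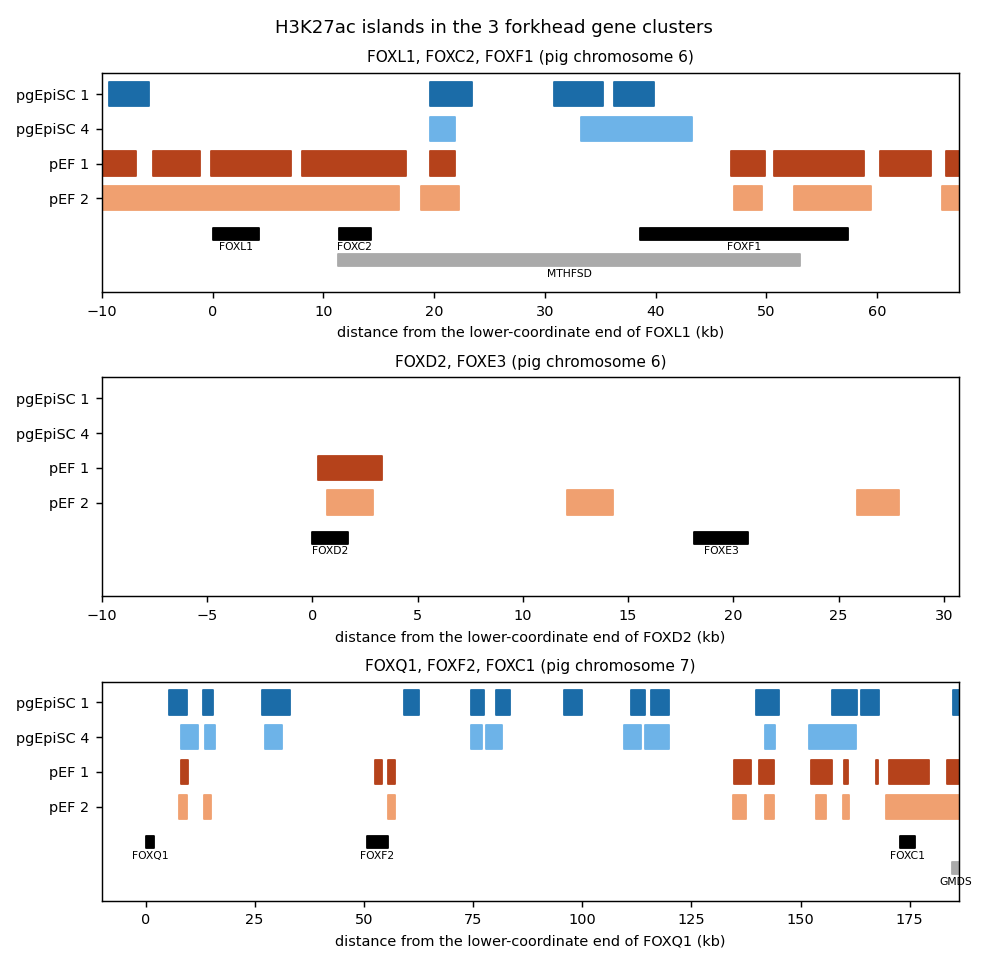
H3K27ac islands (bars) in each library across the 3 intervals with neighbouring forkhead genes, by distance from the lower-coordinate end of the first gene (x axis, kb), with forkhead genes in black and other genes in grey. Islands cover FOXL1, FOXC2 and FOXC1 in both pEF libraries, and no pgEpiSC island lies on those gene bodies.

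FOXQ1, FOXF2 and FOXC1 form a looser cluster on chromosome 7, with gaps of 48.6 and 117 kb, where pgEpiSC covered more of the interval (50.0 and 38.4 kb) than pEF (29.99 kb in each). FOXC1, which shapes the anterior eye, skull and heart, had 5.91 and 0 kb in pgEpiSC and 12.6 and 16.6 kb in pEF (log2 fold change -2.56, SE 1.14, limma adjusted p = 0.169). The gene with 2 kb either side was filled in both pEF libraries, at 7.51 kb, and empty in both pgEpiSC libraries, and the fit on the gene body alone did pass the threshold. FOXQ1 is an epithelial and hair factor, although it was counted in the mesenchymal list. It was called higher in pgEpiSC with 4.0 and 4.0 kb against 1.6 and 1.8 kb (log2 fold change 0.89, SE 0.12, limma adjusted p = 0.017). Those islands lay outside the gene with 2 kb either side, at 1.70-fold and 1.34-fold enrichment in pgEpiSC and 5.49-fold and 5.04-fold in pEF, and with 2-fold islands the direction turned to pEF (log2 fold change -1.43, limma adjusted p = 0.00692). FOXF2, a palate and gut mesenchyme gene, had 3.4 and 0 kb in pgEpiSC and 2.8 and 1.6 kb in pEF, and 25 kb flanks turned its value from -0.58 to 1.87 in favour of pgEpiSC (limma adjusted p = 0.0227).

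FOXS1, found in pericytes and sensory neurons, had 1.8 and 2.4 kb in pgEpiSC and 16.8 and 13.6 kb in pEF. The pEF libraries were high, at 10.3-fold and 9.34-fold enrichment over input, and the groups did not overlap (log2 fold change -2.38, SE 0.23, limma adjusted p = 0.0104). FOXD1, a gene of the kidney stroma, had 0 kb in both pgEpiSC libraries, 3.0 kb in pEF 1 and 3.8 kb in pEF 2 (log2 fold change -2.13, SE 0.11, limma adjusted p = 0.00427). FOXD2 had 0 kb in both pgEpiSC libraries, 3.0 kb in pEF 1 and 2.2 kb in pEF 2 (log2 fold change -1.84, SE 0.13, limma adjusted p = 0.00659). At FOXD1 and FOXD2 the pgEpiSC values stood at the floor of the measure, so the SE rests on the pEF libraries and the fit across all genes. Taken over all islands of a window, enrichment was highest of the family at FOXD2 in each pEF library, 11.8-fold and 10.4-fold. Its window held 1 short island in each, and single islands of other members were higher, such as 16.3-fold at FOXC2 in pEF 1 and 15.2-fold at FOXJ2 in pEF 2. FOXE3 stands 16.4 kb from FOXD2, and no pgEpiSC island lay in the interval of both genes. FOXL2, the ovarian granulosa cell factor, had 2.6 and 0 kb in pgEpiSC and 2.2 and 1.2 kb in pEF, with overlap.

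Calls for these genes depended on single libraries. That of FOXC2 was lost when pEF 1 or pEF 2 was left out, those of FOXD1 and FOXD2 when pgEpiSC 1 or pgEpiSC 4 was, and those of FOXS1 and FOXQ1 whichever library was. In the hedgehog pathway, which acts on several of these genes, 6 of 10 genes were called for pgEpiSC (31.9% of all genes) and 1 for pEF (10.9%). With 2-fold islands the counts were 2 (7.06% of all genes) and 2 (16.5%). The median log2 fold change turned from 1.20 to -0.22, while that of all genes turned from 0.46 to -0.28. SHH, the ligand, had 11.5 and 16.5 kb in pgEpiSC against 0 kb in pEF (log2 fold change 3.88, limma adjusted p = 0.00499). PTCH1, its receptor, differed by 2.91 on the log2 scale, and GLI3, the transducer that acts mostly as a repressor, was higher in pEF (log2 fold change -1.17, limma adjusted p = 0.0264). In the list of TGF-beta and BMP genes 2 of 12 were higher in pgEpiSC (31.9% of all genes) and 2 in pEF (10.9%). Those for pgEpiSC were the receptors TGFBR1 (log2 fold change 1.31) and BMPR1A (1.16). Those for pEF were the ligand TGFB2 (-1.41) and the receptor TGFBR2 (-1.19). With 2-fold islands this list gave 0 (7.06% of all genes) and 3 (16.5%). Its median was -0.45 before and -1.81 after, against 0.46 and -0.28 for all genes.

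The FOXO genes, effectors of insulin and growth factor signalling, had islands in all 4 libraries. FOXO6 had 27.6 and 25.7 kb in pgEpiSC and 8.4 and 6.4 kb in pEF (log2 fold change 1.73, SE 0.17, limma adjusted p = 0.0106). FOXO1 had 101 and 95.7 kb in pgEpiSC and 68.8 and 73.3 kb in pEF (log2 fold change 0.46, SE 0.10, limma adjusted p = 0.0403). This value equals the median of all genes to 2 decimals, and it turned to -0.17 under centring and to -0.80 with 2-fold islands, neither past the threshold. FOXO6 turned to -1.14 with 2-fold islands (limma adjusted p = 0.672). The FOXO6 call was lost without pgEpiSC 1 or pgEpiSC 4, and that of FOXO1 whichever library was left out. FOXO3 had 61.4 and 65.7 kb in pgEpiSC and 37.6 and 73.0 kb in pEF, where the pEF libraries lay on either side of pgEpiSC.

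ChIP reads, counted inside each library's own islands, followed length at FOXO6 and differed from it at FOXO1. In the FOXO6 region below, the islands covered 19.4 and 18.2 kb in pgEpiSC and 8.4 and 6.4 kb in pEF, so its reads are not a separate measure. The region over the higher-coordinate end of FOXO6 had 77.9 and 78.5 CPM in pgEpiSC and 48.4 and 41.1 in pEF (log2 fold change 0.80, edgeR adjusted p = 0.0252). A region at the lower-coordinate end of FOXO1 had 36.3 and 39.4 CPM in pgEpiSC and 117 and 97.1 in pEF (log2 fold change -1.50, edgeR adjusted p = 0.00484). The 92.6 kb region that runs from inside FOXO1 past its higher-coordinate end had 504 and 428 CPM in pgEpiSC and 351 and 402 in pEF, which was not past the threshold, and none of the 5 regions of FOXO3 was. In the insulin, PI3K and AKT list 7 of 16 genes were higher in pgEpiSC (31.9% of all genes), among them the kinase AKT2 (log2 fold change 2.54), and 2 were higher in pEF (10.9%), the regulatory subunit PIK3R1 (-1.26) and the receptor IGF1R. IGF1R had 112 and 111 kb in pgEpiSC and 225 and 221 kb in pEF (limma adjusted p = 0.0164). With 2-fold islands the counts of this list were 1 (7.06% of all genes) and 3 (16.5%). Its median log2 fold change turned from 0.93 to -0.42, while that of all genes turned from 0.46 to -0.28. AKT kinases phosphorylate FOXO proteins. Of 13 measured FOXO targets 2 were higher in pgEpiSC (31.9% of all genes), SESN3 (2.18) and BCL2L11 (1.34). Another 4 were higher in pEF (10.9%), among them BCL6 (-1.16), GADD45A (-1.16) and KLF2 (-1.08). With 2-fold islands the targets gave 0 (7.06% of all genes) and 4 (16.5%). Their median turned from 0.47 to -0.73, against 0.46 and -0.28 for all genes.

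FOXM1, which drives the G2 and mitosis programme, had 14.8 and 16.2 kb in pgEpiSC and 10.8 and 11.6 kb in pEF. The groups did not overlap, but the difference was not past the threshold (log2 fold change 0.44, SE 0.11, limma adjusted p = 0.0633), and 8.0 kb in each library lay over RHNO1 and TULP3. Of 15 FOXM1 targets 4 were higher in pgEpiSC, among them CCNB1 (1.33), CDC25C (1.16) and CENPA (1.04), and 1 was higher in pEF, CENPF (-1.33), as log2 fold changes. These shares are set against 31.9% and 10.9% over all genes. With 2-fold islands CCNB1 alone was called, for pgEpiSC (7.06% of all genes). The median turned from 0.71 to -0.18, while that of all genes turned from 0.46 to -0.28.

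Among the broadly expressed and FOXP genes, 3 of 9 were higher in pgEpiSC (FOXJ3, FOXP2 and FOXP4), 1 was higher in pEF (FOXK1) and 5 were not past the threshold. These counts are close to the shares over all genes, 31.9% for pgEpiSC and 10.9% for pEF. FOXK1, a regulator of muscle progenitors and metabolism, had 12.1 and 17.8 kb in pgEpiSC and 45.1 and 51.9 kb in pEF (log2 fold change -1.65, SE 0.23, limma adjusted p = 0.0196). Its paralog FOXK2 had 39.6 and 57.6 kb in pgEpiSC and 13.8 and 21.6 kb in pEF, the opposite order, with an adjusted p just above 0.05 (log2 fold change 1.42, SE 0.33, limma adjusted p = 0.0501). The cell types did not overlap at either gene, the FOXK1 call was lost whichever library was left out, and the difference between the paralogs was not tested. At FOXK1, reads in the region at its lower-coordinate end were 13.4 and 14.7 CPM in pgEpiSC and 115 and 104 in pEF (log2 fold change -2.96, edgeR adjusted p = 0.00142). They came from islands of 2.4 and 2.6 kb in pgEpiSC and 13.2 and 13.0 kb in pEF. At FOXK2 the region at the higher-coordinate end had 63.7 and 52.5 CPM in pgEpiSC and 14.9 and 23.6 in pEF (log2 fold change 1.59, edgeR adjusted p = 0.013). The other FOXK2 region, inside the gene, had 29.4 and 61.0 CPM in pgEpiSC and 59.2 and 148 in pEF, which overlapped (log2 fold change -1.19, edgeR adjusted p = 0.134).

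FOXP2, known for its role in speech and in the developing brain, had 59.2 and 63.6 kb in pgEpiSC and 13.2 and 14.0 kb in pEF (log2 fold change 2.10, SE 0.08, limma adjusted p = 0.00305), a call that held with each library left out. FOXP4, expressed in lung and gut epithelium, had 34.8 and 35.0 kb in pgEpiSC and 7.2 and 9.2 kb in pEF (log2 fold change 1.97, SE 0.15, limma adjusted p = 0.00717). Both pgEpiSC libraries lay far above both pEF libraries at these genes. The region at the lower-coordinate end of FOXP4 had 127 and 131 CPM in pgEpiSC and 19 and 28.1 in pEF (log2 fold change 2.45, edgeR adjusted p = 0.00274). FOXJ3 had 45.4 and 43.4 kb in pgEpiSC and 10 and 17 kb in pEF (log2 fold change 1.69, SE 0.29, limma adjusted p = 0.0286), and 2-fold islands turned its value to -0.42 (limma adjusted p = 0.608). The FOXP4 and FOXJ3 calls were lost without pgEpiSC 1 or pgEpiSC 4.

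The other broadly expressed members were not past the threshold by length. FOXJ2 had 24.8 and 18.8 kb in pgEpiSC and 16.5 and 13.4 kb in pEF, and FOXN3, a cell cycle checkpoint factor, had 131 and 154 kb in pgEpiSC and 98.8 and 106 kb in pEF. In both the groups did not overlap. Reads at the lower-coordinate end of FOXJ2 went the other way, with 30.7 and 22.4 CPM in pgEpiSC and 65.1 and 50.4 in pEF (log2 fold change -1.12, edgeR adjusted p = 0.0249). FOXN2 had 12.2 and 9.6 kb in pgEpiSC and 2.8 and 11.8 kb in pEF, which overlapped.

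FOXP1, a factor of lymphocyte, heart and neural development, had the longest cover of the family, which overlapped between the cell types, while its reads differed from region to region. Its islands covered 250 and 274 kb in pgEpiSC and 258 and 287 kb in pEF (log2 fold change -0.06, SE 0.21, limma adjusted p = 0.871), and centring put it past the threshold as higher in pEF. Of its 17 regions with an island in all 4 libraries, 5 had more reads in pEF, 2 had more in pgEpiSC and 10 were not past the threshold by edgeR. A 48.4 kb region 9.2 kb inside the lower-coordinate end had 85.5 and 76.3 CPM in pgEpiSC and 435 and 405 in pEF (log2 fold change -2.38, edgeR adjusted p = 0.00154). The steepest difference stood 156.2 kb inside, with 9.88 and 9.15 CPM in pgEpiSC and 87.4 and 92.5 in pEF (log2 fold change -3.24, edgeR adjusted p = 0.00135). The islands there covered 3.6 and 3.4 kb in pgEpiSC and 12.2 and 13.2 kb in pEF. The region over the lower-coordinate end itself went the other way, with 45.4 and 46.5 CPM in pgEpiSC and 15.1 and 11.4 in pEF (log2 fold change 1.79, edgeR adjusted p = 0.00611).

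FOXN3 was the other member with regions called both ways, 2 higher in pgEpiSC, 2 higher in pEF and 5 not past the threshold. Its region 57.3 kb inside the lower-coordinate end had 35.8 and 37.2 CPM in pgEpiSC and 4.52 and 8.29 in pEF (log2 fold change 2.51, edgeR adjusted p = 0.00671). A region 237.3 kb inside had 38.0 and 39.2 in pgEpiSC and 95.4 and 84.2 in pEF (log2 fold change -1.22, edgeR adjusted p = 0.00716).

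**Figure D5:**
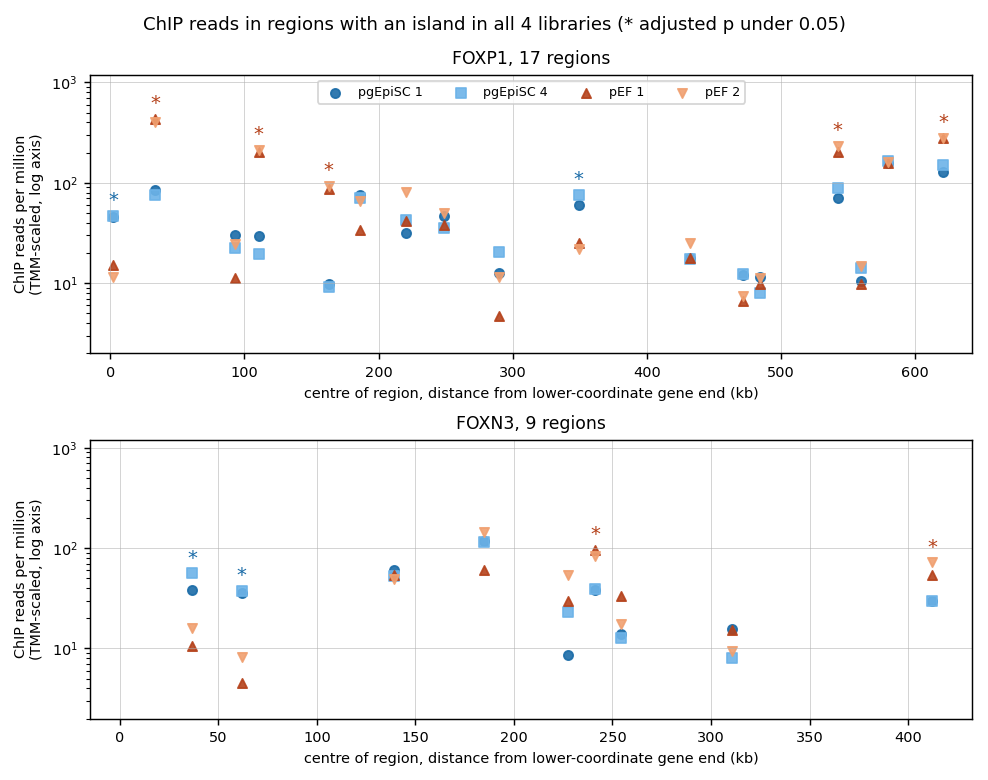
ChIP reads in CPM (y axis, log scale) in each library in the regions of FOXP1 and FOXN3 with an island in all 4 libraries, by distance of the region's centre from the lower-coordinate gene end (x axis, kb). Stars mark regions with an edgeR adjusted p under 0.05, blue for higher in pgEpiSC and red for higher in pEF: 2 and 5 at FOXP1, 2 and 2 at FOXN3.

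Over the family, 22 members held 63 regions with islands in all 4 libraries, and 14 regions had more reads in pgEpiSC, 13 had more in pEF and 36 were not past the threshold by edgeR. Of all 20498 such regions, 22.7% had more reads in pgEpiSC, 23.4% in pEF and 46.0% in either, which is close to the share for the forkhead regions. With library sizes in place of TMM scaling, the forkhead calls were 18 and 11 and those over all regions 5689 and 3752, against 4649 and 4790 with TMM, a shift of the median region to 0.24. Without pgEpiSC 1 or pgEpiSC 4 there were fewer calls in both directions, for the forkhead regions and over all regions alike. Regions require an island in pEF too, so genes such as FOXB1 and FOXD3 have none. At FOXN2 the region at the higher-coordinate end was higher in pEF (10.9 and 9.37 CPM in pgEpiSC, 37.3 and 47.4 in pEF; log2 fold change -2.07, edgeR adjusted p = 0.0046) although length did not differ past the threshold.

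Of the 22 members with islands in all 4 libraries, enrichment over input in the window was higher in both pEF libraries at 20, overlapped at 2 and was higher in both pgEpiSC libraries at 0. The same count over all genes was not made, so whether this sets the family apart was not tested. The medians over members with an island were 2.01-fold and 1.80-fold in pgEpiSC and 5.34-fold and 4.74-fold in pEF, in a setting where the medians over all islands were 1.80-fold and 1.67-fold against 3.47-fold and 3.46-fold. Of the 16 members called higher in pgEpiSC by length, 7 had at least 2-fold enrichment in both pgEpiSC libraries and 6 had less than 2-fold in both. The part of this difference between the libraries in the calls by length was tested only through the 2-fold filter above.

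An island within 2 kb of a gene end was found in all 4 libraries for 18 of 39 members (67.8% of all genes), in pgEpiSC only for 5 (7.31%), in pEF only for 7 (4.48%), in no library for 5 (10.1%) and in other combinations for 4 (FOXA1, FOXB2, FOXL2 and FOXP4). Those with pgEpiSC only were FOXB1, FOXD3, FOXI1, FOXI2 and FOXN4. Those with pEF only were FOXC1, FOXC2, FOXD1, FOXD2, FOXE1, FOXF2 and FOXL1. FOXE3, FOXI3, FOXN1, FOXQ1 and FOXR1 had none. Over the whole window, 6 members had an island in both pgEpiSC libraries and neither pEF library (4.46% of all genes), 3 had the reverse (2.9%), 22 had an island in every library (82.1%) and 0 had none (3.74%). The acetylated lengths of the types did not overlap at 22 members higher in pgEpiSC (52.3% of all genes) and 9 higher in pEF (21.9%).

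Many forkhead genes are short, and 21 of the 39 windows were under 30 kb. Among all 4162 genes with windows that short, 6.03% had islands in pgEpiSC alone and 4.61% in pEF alone, and the forkhead counts there were 5 (23.8%) and 3 (14.3%). Of the 18 members with longer windows, 1 had islands in pgEpiSC alone and 0 in pEF alone. Among all 12136 genes with such windows the shares were 3.92% and 2.32%. By the limma call, 8 of the 21 short members were higher in pgEpiSC (26.4% of all short-window genes) and 4 in pEF (8.7%). Of the 18 longer ones 8 were higher in pgEpiSC (33.8% of all genes with longer windows) and 2 in pEF (11.6%).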

How the data were processed

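H3K27ac ChIP-seq islands of pgEpiSC and pEF were taken from 4 deposited lists, 1 per H3K27ac library. Input reads appear inside them. Per the labels, sonicated fragments of 200 to 500 bp gave paired-end libraries (150 bp reads, on average 120.62 M raw and 115.78 M of high quality each). The submitters' processing notes name BWA 0.7.15, SAMtools 0.1.19 and SICER 1.1, and no header stands in the lists. ChIP and input reads of an island are in the deposited count columns. Its p-value against input and its FDR are in the deposited p-value columns. The deposited ratio column is the fold of ChIP over scaled input reads. Read filters and the genome build are not given in the sources used here. On 19 of 19 chromosomes, islands met the gene ends of the RefSeq table (Sscrofa11.1) more often than they met points shifted by 20 kb. That table was therefore used for names and windows, and no coordinates are printed. It gives no strand, so both gene ends stood in for gene starts.

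Acetylated length per gene was tested with limma 3.58.1 (trend, log2(kb + 1), no filter, Benjamini-Hochberg over 16298 genes), and fold changes on that scale understate those of thinly covered genes. ChIP reads in 20498 merged regions were tested with edgeR 4.0.16 (quasi-likelihood, TMM) in R 4.3.3. A library's count in a region is the reads inside its own islands there, so it also depends on their length. Both tests were two-sided over all 4 libraries, with the threshold at 0.05, and were tested on simulated data. Islands at gene ends, groups and lists were described without a test. Alternatives were other island sets, flanks, pseudocounts, scalings, filters, DESeq2 1.42.0 and each library left out. Members were named, with up to 3 genes per direction of each pathway list by size of change. A member and some listed genes are counted but not reported here by name. The members and lists were chosen with earlier results of these data known. AKT1, CFC1, FOXD4, G6PC1 and KRT14 of the lists were not measured here. Promoter, protein and genome sequences were not used here. Enrichment over input is a member's ChIP reads over its input reads in the window's islands, scaled per library as in the deposited ratio.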

Additional observations from a re-analysis of the deposited data

How the results depend on the processing

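The acetylated length calls in pgEpiSC (16 of 39 forkhead genes) moved by over 1.5 times with islands of at least 2-fold over input (3) and with the gene body alone (10), and the calls in pEF (6) moved with 2-fold islands (11). With each library left out in turn, they ranged from 7 to 9 in pgEpiSC and from 1 to 4 in pEF. Of the calls, 3 in pgEpiSC (FOXB1, FOXD3, FOXH1) and 4 in pEF (FOXC2, FOXD1, FOXK1, FOXS1) were kept under all 9 settings that used every library, and 3 (FOXB1, FOXI2, FOXP2) and 0 with each library left out. The other settings (FDR under 0.001, 25 kb flanks, pseudocounts of 0.2 and 5 kb, centring, a mean of at least 1 kb, percent of window) stayed within 1.5 times of both counts. Leaving aside values past the threshold under neither setting, direction changed for FOXF2 with 25 kb flanks (1.87), for FOXJ1 with the gene body alone (-0.23), for FOXO1 under centring (-0.17), and with 2-fold islands for FOXJ3 (-0.42), FOXO1 (-0.80), FOXO6 (-1.14) and FOXQ1 (-1.43), as log2 fold changes. The forkhead region calls by edgeR (14 and 13) were 8 and 5 of 24 regions with 2-fold islands, where fewer regions were tested, and ranged from 3 to 20 in pgEpiSC and from 6 to 18 in pEF with each library left out. DESeq2 gave 14 and 16. Among gene ends, 2-fold islands left 2 members with islands in pgEpiSC only and 9 with islands in all 4 libraries, and 5 kb windows left 1 with none. The causes were not tested, apart from the smaller sets. With a library left out, the lone library of its type was assumed to vary like the other type. No paired analysis was possible because pgEpiSC (1 and 4) and pEF (1 and 2) share only the number 1.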

Other observations

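FOXO4, FOXP3 and FOXR2 lie on the X chromosome and so outside the rule for the forkhead genes above. FOXP3, the factor of regulatory T cells, had 7.6 and 9.8 kb in pgEpiSC and 2.8 and 2.6 kb in pEF, with no overlap (log2 fold change 1.38, limma adjusted p = 0.0233). FOXO4, the X-linked FOXO gene, had 3.4 and 4.58 kb in pgEpiSC and 1.6 and 2.0 kb in pEF, also without overlap, and was not past the threshold (log2 fold change 0.83, limma adjusted p = 0.0505). FOXR2 had no island in any library, and the nearest ones lay 91.7 and 104.9 kb away in pgEpiSC and 92.1 and 92.3 kb away in pEF.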
